A study of Mus musculus with 5 samples.

Results

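Natural helper cells are tissue lymphocytes without antigen receptors, now counted among the group 2 innate lymphoid cells (ILC2), and they carry receptors for local mediators that raise cyclic AMP (cAMP) inside the cell. The genes described here are 10 genes of that route: the prostaglandin E2 receptor genes Ptger2 and Ptger4, the receptor genes Vipr1 and Vipr2 for vasoactive intestinal peptide (VIP), the adenosine receptor gene Adora2a, the phosphodiesterase genes Pde3b, Pde4b, Pde4d and Pde7b, and the transcription factor gene Crem. They were picked by name from a table of 19938 genes because Ptger4, Vipr2 and Pde7b had fallen and Ptger2 had risen in the comparison given below. The values of the members in that comparison therefore describe the choice and are given with no p-value, and how many of them the test over all genes called is given once, only beside its share of all genes. Of the 10, 9 had a probe set assigned to that gene alone, and Adora2a was not analysed here. The cells were taken from the lungs of 6 to 8 week old C57Bl/6 mice that had not been treated, sorted as lineage-negative Sca-1+ CD127+ CD25+ cells with low or absent c-Kit. On 3 arrays the RNA was taken right after the sort (unstimulated). On 2 arrays the cells had first spent 3 days in culture with 60 ng/ml of the phorbol ester PMA, which activates protein kinase C, and 500 ng/ml of the calcium ionophore ionomycin. Neither the sex of the mice nor pooling is given in the labels, and no array of cells cultured without the agents was analysed here, so culture and stimulation cannot be told apart. Nothing says that the arrays stem from separate mice or cultures, so the spread behind each p-value could be technical alone.

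As background, prostaglandin E2, VIP and adenosine bind receptors coupled to the G protein Gs, which switches on adenylyl cyclases that make cAMP. The second messenger activates protein kinase A, which phosphorylates transcription factors of the CREB family, and phosphodiesterases end the signal by breaking cAMP down. In lymphocytes a rise in cAMP is widely known to damp activation, and prostaglandin E2 acts on innate lymphoid cells of this group through the receptors EP2 (Ptger2) and EP4 (Ptger4).

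The windows just before the gene starts are shown for the 4 genes that led to the choice, so that the promoters of the receptor gene that was higher and of the 3 genes that were lower can be set side by side. The windows are from RefSeq on build GRCm38.p6, 250 bases each, and end at the base before the annotated start. They lie at chr14:44987861-44988110 (plus strand) for Ptger2, chr15:5244188-5244437 (minus strand) for Ptger4, chr12:116077476-116077725 (plus strand) for Vipr2 and chr10:20548329-20548578 (minus strand) for Pde7b. Capitals mark the core letters recognised by NFAT, GGAAA, or TTTCC on the other strand, since ionomycin is known to activate NFAT.
Ptger2: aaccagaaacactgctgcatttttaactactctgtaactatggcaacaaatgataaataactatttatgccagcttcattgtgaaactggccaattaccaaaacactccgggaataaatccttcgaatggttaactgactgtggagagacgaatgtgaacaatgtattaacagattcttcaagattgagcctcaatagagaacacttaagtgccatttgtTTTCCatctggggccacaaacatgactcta
Ptger4: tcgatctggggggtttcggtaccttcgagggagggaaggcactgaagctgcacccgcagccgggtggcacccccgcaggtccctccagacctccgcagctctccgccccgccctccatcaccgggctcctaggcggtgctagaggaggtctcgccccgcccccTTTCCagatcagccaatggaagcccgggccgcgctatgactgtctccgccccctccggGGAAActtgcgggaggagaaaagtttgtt
Vipr2: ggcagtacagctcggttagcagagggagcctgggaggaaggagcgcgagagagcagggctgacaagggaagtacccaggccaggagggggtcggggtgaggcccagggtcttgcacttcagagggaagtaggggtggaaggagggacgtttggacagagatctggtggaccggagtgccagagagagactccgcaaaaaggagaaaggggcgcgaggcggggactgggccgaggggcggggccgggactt
Pde7b: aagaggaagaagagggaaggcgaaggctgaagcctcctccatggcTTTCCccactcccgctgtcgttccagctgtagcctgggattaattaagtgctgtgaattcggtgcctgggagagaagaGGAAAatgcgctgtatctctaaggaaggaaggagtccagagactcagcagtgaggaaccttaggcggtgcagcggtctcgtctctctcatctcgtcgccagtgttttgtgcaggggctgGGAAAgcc
The Ptger2 window had 38.0% G and C and 3 CpG dinucleotides, and 8.47% of all 32851 windows had a lower G and C share. The Ptger4 window had 66.8% and 19 CpG, the Vipr2 window 65.2% and 13, and the Pde7b window 55.2% and 10, against medians of 52.4% and 6 over all windows. The NFAT core was found 3 times in the Pde7b window, 2 times in that of Ptger4, once in that of Ptger2 and not in that of Vipr2, and 55.6% of all windows hold it. The full cAMP response element, TGACGTCA, its core TGACG and the AP-1 letters TGANTCA, searched on both strands, were not in these 4 windows. Of all windows, 1.55% hold the full element, 17.8% the core, which is part of the full element, and 6.75% the AP-1 letters. Among the members, 7 had a window in the table, and the core of the element was in that of Vipr1 and in 1 of the 4 windows of Pde4b. The Pde4b match read CGTCA, the core as it appears on the strand opposite to the gene, and began 34 bases before the start. It is shown in capitals within the stretch chr4:102421501-102421545 (plus strand), which adds its flanks.
Pde4b: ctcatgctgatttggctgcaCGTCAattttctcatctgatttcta
A match describes the letters only.

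The sorted cells carried high values of Gata3 (10.55 to 10.82), Il7r (10.89 to 10.97) and Il2ra (10.65 to 10.73), genes that mark natural helper cells. Il7r codes for CD127 and Il2ra for CD25, on which the cells were sorted, so these 2 are no separate evidence of identity. Of 14 listed marker genes of natural helper cells, Il1rl1, Ly6a and Areg were not measured. Of the 11 measured genes of that marker list, 5 were called lower after PMA and ionomycin, where 0.963% of all genes were. These were Rora, Id2, Il7r, Il17rb and Kit, with differences of -3.23 for Il17rb and -2.86 for Kit. Kit, which codes for c-Kit, read 9.69 to 9.97 on the unstimulated arrays, although the cells were sorted for low or absent c-Kit protein. The source of that signal was not tested. The groups did not overlap for 8 lower and 1 higher of the 11 genes, beside 32.5% of all genes in either direction. Signal of other lung cells was also present, and differed between the unstimulated arrays. The summed unlogged level of 10 of 10 listed epithelial, endothelial and fibroblast markers was 4504, 2948 and 1164 on unstimulated arrays 1, 2 and 3, against 791 and 951 after PMA and ionomycin. Cdh5, of endothelium, read 9.71, 9.06 and 7.12 on the unstimulated arrays and 5.59 and 6.19 on the others. The sum of 10 of 11 macrophage, monocyte and neutrophil markers ran from 517 to 1569 in unstimulated and from 327 to 347 in stimulated samples. For 7 of 7 T cell markers these ranges were 1654 to 2727 and 1151 to 1485, for 5 of 7 B cell markers 141 to 219 and 161 to 163, for 7 of 7 NK cell markers 262 to 560.0 and 264 to 410.1, for 7 of 7 dendritic cell markers 326 to 576, and 264 to 291, and for 6 of 6 mast cell and basophil markers 181 to 270.2 and 101 to 105. A low value of a marker cannot be read as absence, since a level above background cannot be told here. In these 7 lists no gene passed the test, where 1.70% of all genes did. A lack of calls does not mean a lack of difference. Lyz2 differed by -3.25 ± 0.49 (SE, adjusted p = 0.0778) and Cpa3 by -2.80 ± 0.36 (SE, adjusted p = 0.0640), both without overlap. The largest difference in the other direction was 0.54, for Prf1. In RNA from many cells, fewer cells of a type and less RNA per cell cannot be told apart. Unstimulated array 3, with the least lung signal of its group, also correlated less with the other unstimulated arrays (Pearson r = 0.980 and 0.981, taken across probe sets, whose values are not independent) than those did with each other (0.989). Differences against that array alone are therefore given beside those over all arrays. Xist read 9.09 to 10.20 on the unstimulated arrays and 4.11 to 4.16 on the stimulated ones, so sex and treatment cannot be told apart.

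Of the prostaglandin E2 receptor genes, Ptger2 was higher and Ptger4 lower after stimulation. Ptger2 codes for EP2, which couples to Gs, and read 7.02, 7.03 and 6.91 (log2 expression) on unstimulated arrays 1, 2 and 3 and 7.98 and 8.13 on stimulated arrays 1 and 2. The groups did not overlap, with a gap of 0.95 between the highest unstimulated and the lowest stimulated value. The means were 6.99 ± 0.07 (SD, n = 3) and 8.06 ± 0.11 (SD, n = 2), a difference of 1.07 ± 0.07 (SE of the fit), or 2.10-fold higher. Ptger4 codes for EP4, which also couples to Gs, and read 8.82, 8.67 and 8.68 without and 7.38 and 7.32 after stimulation. The groups were separated by 1.28, and the range among the unstimulated arrays was 0.15. The means were 8.72 ± 0.08 (SD, n = 3) and 7.35 ± 0.05 (SD, n = 2), a difference of -1.37 ± 0.06 (SE), or 2.59-fold lower. Against unstimulated array 3 alone, the array with the least signal of lung cells, the differences were 1.15 for Ptger2 and -1.33 for Ptger4.

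**Figure D1:**
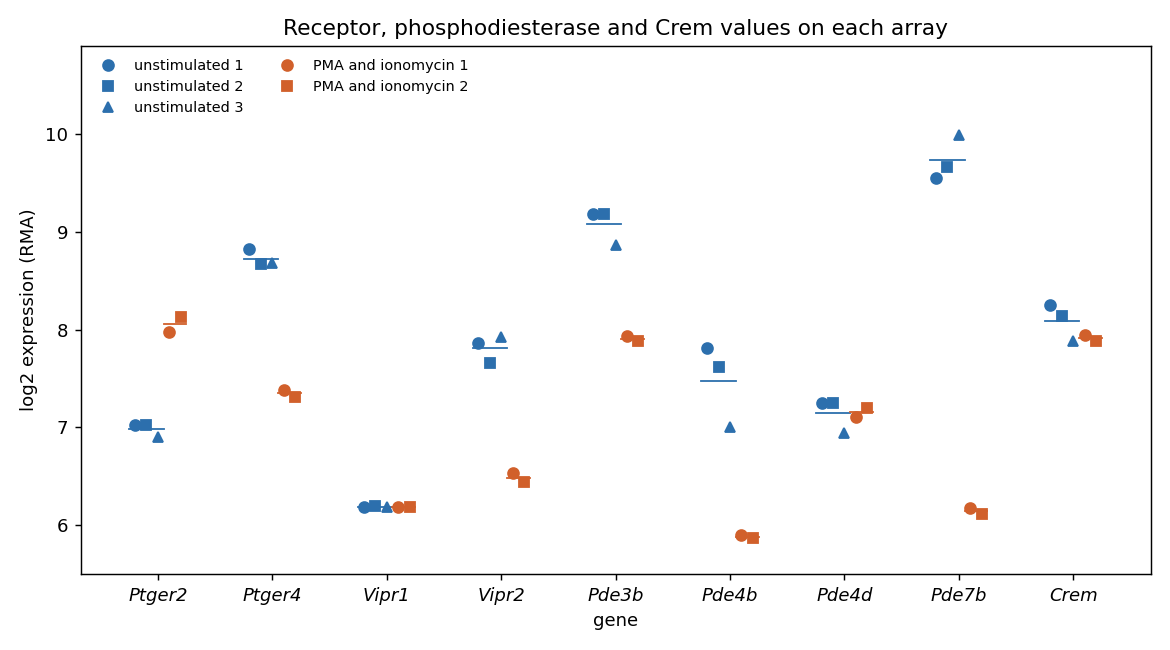
Log2 expression (RMA) of the 9 measured members on each of the 5 arrays, with unstimulated arrays in blue, stimulated arrays in orange, marker shapes for the replicate number and short lines at the group means. Ptger2 lies higher in orange, Ptger4, Vipr2, Pde3b, Pde4b and Pde7b lie lower, and the colours meet for Vipr1, Pde4d and Crem.

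All 9 listed prostaglandin receptor genes were measured, and none of the 7 that are not members passed the test, where 1.70% of all genes did (0.737% higher and 0.963% lower). Ptgir, which codes for the prostacyclin receptor, another Gs-coupled receptor, read 7.26, 7.60 and 7.39 without and 6.63 and 6.30 after stimulation (-0.95 ± 0.16 SE, adjusted p = 0.0898). Ptger1, the gene of the EP1 receptor, which does not act through Gs, read 7.06, 7.42 and 7.16 and then 6.32 and 6.52 (-0.79 ± 0.14 SE, adjusted p = 0.0990). For both genes the groups did not overlap, as held for 32.5% of all genes in either direction. Values of Ptger3 (EP3) differed by 0.01 ± 0.07. Those of the prostaglandin D2 receptor genes Ptgdr and Ptgdr2, the latter coding for CRTH2, differed by 0.24 ± 0.12 and -0.02 ± 0.04. Ptgdr2, a known surface marker of these cells in humans, read 5.17 to 5.25 on the 5 arrays, with the same value on 3 of them. Without detection calls in the table, a level above background cannot be told for it.

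Of the VIP receptor genes, Vipr2 was lower after stimulation and Vipr1 stayed at the same value on 4 of 5 arrays. Vipr2, which codes for VPAC2, read 7.87, 7.66 and 7.93 on the unstimulated and 6.53 and 6.44 on the stimulated arrays. The lowest unstimulated value was 1.13 above the highest stimulated one, and the range in the unstimulated group was 0.27. Means of 7.82 ± 0.14 (SD, n = 3) and 6.49 ± 0.06 (SD, n = 2) differed by -1.33 ± 0.10 (SE), or 2.52-fold, and by -1.44 against unstimulated array 3 alone. Vipr1, which codes for VPAC1, read 6.19 on 4 arrays, identical to 5 decimals, and 6.20 on unstimulated array 2. Its other probe set read 5.18 on the 3 unstimulated arrays and 5.11 and 5.20 on the stimulated ones. With identical values on most arrays, no difference in Vipr1 was detectable with these probe sets.

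Among 9 further genes of Gs-coupled receptors and their partners that were measured, none was called. Calcrl and Ramp1 together form the receptor for calcitonin gene-related peptide, a neuropeptide that acts on these cells. Calcrl, the receptor chain, differed by 0.14 ± 0.12 (SE) from an unstimulated mean of 10.58, and its partner Ramp1 by -0.62 ± 0.28 (adjusted p = 0.369). Ramp2 read 8.02 and 7.65 on unstimulated arrays 1 and 2 but 5.76 on unstimulated array 3, next to 5.62 and 5.65 after stimulation. The Ramp2 values had the order of the lung cell marker sums over the unstimulated arrays, and the part of those cells was not tested. Ramp3 read 10.51, 10.57 and 9.40, then 9.44 and 9.50, so that unstimulated array 3 lay below both stimulated arrays. Gpr65, the gene of a proton sensor coupled to Gs, differed by 0.002 ± 0.11. The median difference of the 11 measured receptors, Vipr1 and Vipr2 included, was -0.05, beside 0.00 over all genes.

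Of the 4 phosphodiesterase members, Pde7b, Pde4b and Pde3b were lower after stimulation and Pde4d was not. Pde7b, of a cAMP-specific family, read 9.55, 9.66 and 9.99 without stimulation and 6.17 and 6.12 with it. No unstimulated value came within 3.37 of a stimulated one. The means of 9.73 ± 0.23 (SD, n = 3) and 6.15 ± 0.04 (SD, n = 2) differed by -3.59 ± 0.16 (SE), 12.02-fold lower, which ranked it 7 from the lowest among 19938 differences. It was -3.85 against unstimulated array 3 alone, the array on which Pde7b was highest. Pde4b codes for a cAMP-specific enzyme of immune cells and read 7.81, 7.61 and 7.01, then 5.90 and 5.87. Its unstimulated values had the order of the lung and myeloid marker sums, highest on array 1 and lowest on array 3, and their range of 0.80 was the widest of the members. The difference was -1.59 ± 0.28 (SE), 3.02-fold lower, and -1.13 against unstimulated array 3 alone, while the groups stayed 1.11 apart. The part of the other cells in it was not tested.

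Pde3b, whose enzyme is inhibited by cyclic GMP, read 9.18, 9.18 and 8.87 without and 7.93 and 7.89 after stimulation. The groups lay 0.93 apart, and the unstimulated values spanned 0.32, with array 3 the lowest. The difference was -1.17 ± 0.13 (SE), 2.25-fold lower, and -0.96 against unstimulated array 3 alone. Pde4d, the relative of Pde4b, read 7.25, 7.25 and 6.94, then 7.11 and 7.20, so that its groups overlapped, with a difference of 0.01 ± 0.12 (SE). Another Pde4d probe set read 7.10, 6.99 and 5.64, then 6.76 and 6.87, and the remaining probe set 4.07 to 4.75. On the former, unstimulated array 3 stood below all other arrays, and on neither did the groups separate.

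All 24 listed phosphodiesterase genes were measured. Outside the members, Pde7a fell and the 19 others did not pass the test. Pde7a, the close relative of Pde7b, read 9.71, 9.84 and 9.77 on unstimulated and 8.54 and 8.71 on stimulated arrays. The groups did not overlap, the difference was -1.15 ± 0.07 (SE), or 2.21-fold, and the adjusted p was 0.0323. Against unstimulated array 3 alone it was -1.14. The call was lost without unstimulated array 1 (adjusted p = 0.0919), 2 (0.114) or 3 (0.0719) and without stimulated array 1 (0.0510), and kept without stimulated array 2 (0.0382). Pde3a, the relative of Pde3b, read 5.95, 5.24 and 4.69 and then 4.28 and 4.39 (-0.96 ± 0.43 SE), and Pde2a 6.09, 6.15 and 5.54 and then 5.40 and 5.41 (-0.52 ± 0.23 SE). Against unstimulated array 3 alone they differed by -0.36 and -0.14. Pde3a had the order of the lung marker sums over the unstimulated arrays, and Pde2a was highest on array 2 and lowest on array 3. The part of those cells was not tested. Across the 24 genes, 15 differed by less than 0.25 either way, and 8 (33.3%) had groups that did not overlap, all of them lower after stimulation. Of all 19938 genes, 2790 were lower and 3699 higher without overlap, together 32.5%. Of the 8, 3 are members. The median was -0.07, and -0.02 over the 20 that are not members.

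**Figure D2:**
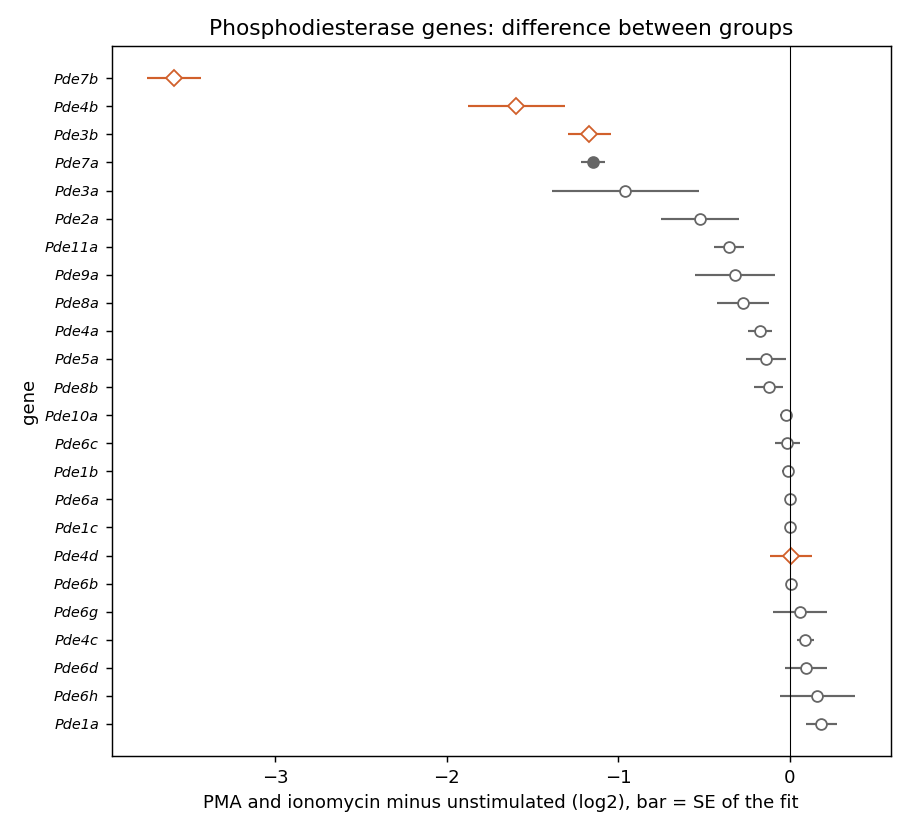
Difference in log2 expression (PMA and ionomycin minus unstimulated, 2 and 3 arrays) for 24 phosphodiesterase genes, with bars of 1 SE of the fit. Members are open orange diamonds, drawn without a call, and other genes are grey points, filled where called over all genes. Pde7b (-3.59), Pde4b (-1.59), Pde3b (-1.17) and Pde7a (-1.15) lie apart from the 15 genes within 0.25 of 0.

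Crem codes for a CREB family factor whose internal promoter also gives rise to the repressor ICER, a transcript that the probe set cannot tell apart here. It read 8.26, 8.14 and 7.88 without and 7.94 and 7.89 after stimulation. The stimulated values fell within the unstimulated range, and the difference was -0.18 ± 0.13 (SE). Against unstimulated array 3 it was 0.03, the opposite sign. Among the 10 other measured genes of CREB factors, coactivators and salt inducible kinases, Crtc2 fell and none rose. Crtc2, a coactivator that enters the nucleus when cAMP rises, differed by -0.37 ± 0.03 (SE, adjusted p = 0.0442). Leaving out any 1 array ended that call (adjusted p = 0.0608 to 0.128). Its relative Crtc3 differed by -0.80 ± 0.11 (adjusted p = 0.0720). Sik1, a kinase induced by cAMP that holds CRTC proteins in the cytoplasm, read 9.52, 9.59 and 9.17, then 6.50 and 7.14, a difference of -2.61 ± 0.27 (adjusted p = 0.0510). Creb1 itself differed by 0.15 ± 0.11. Of 13 measured textbook targets of CREB other than Crem, 5 fell (38.5%, where 0.963% of all genes did) and none rose, with a median of -1.96 beside 0.00 over all genes. They were Fosb, Dusp1 and Fos, and also Junb (-1.95 ± 0.13 SE, adjusted p = 0.0352), a subunit of AP-1, and Rgs2 (-1.96 ± 0.15 SE, adjusted p = 0.0403), a regulator of G protein signalling. None of the 5 kept its call without unstimulated array 1 or 2, Fosb alone kept it without unstimulated array 3, and 4, all but Junb, kept it without either stimulated array. Nr4a1, a nuclear receptor gene, differed by -2.32 ± 0.35 (adjusted p = 0.0769). Many of these targets are also early response genes that other signals induce. The list was chosen with earlier results of these data known, so its share of calls is a description only.

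On the side of the ligands, no gene of prostaglandin synthesis, transport or breakdown was called among 12 measured. Ptgs2, which codes for the inducible cyclooxygenase, was at 10.07, 10.12 and 9.29 without and 9.16 and 9.79 after stimulation (-0.35 ± 0.38 SE). The overlap leaves its difference within the spread of the arrays. Hpgds, the gene of the prostaglandin D2 synthase of haematopoietic cells, differed by -0.07 ± 0.20. Abcc4, whose product exports cAMP and prostaglandins, was 0.40 ± 0.05 higher (adjusted p = 0.0674), and Pla2g4a, which releases arachidonic acid, 0.58 ± 0.13 higher (adjusted p = 0.135). Pla2g4a read 4.84, 4.58 and 4.48, then 5.15 and 5.29, all below the median of all probe sets (5.64). Hpgd and Slco2a1, which degrade and take up prostaglandins and are abundant in lung, read lowest after stimulation but were also graded in unstimulated cells. Hpgd read 9.72, 9.07 and 7.23, then 4.86 and 5.92 (-3.28 ± 0.94 SE, adjusted p = 0.189). Slco2a1 read 8.28, 7.79 and 6.11, then 4.94 and 5.31 (-2.27 ± 0.78 SE, adjusted p = 0.246). The same order was seen in the endothelial marker Cdh5, given above, whose part in these values was not tested.

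**Figure D3:**
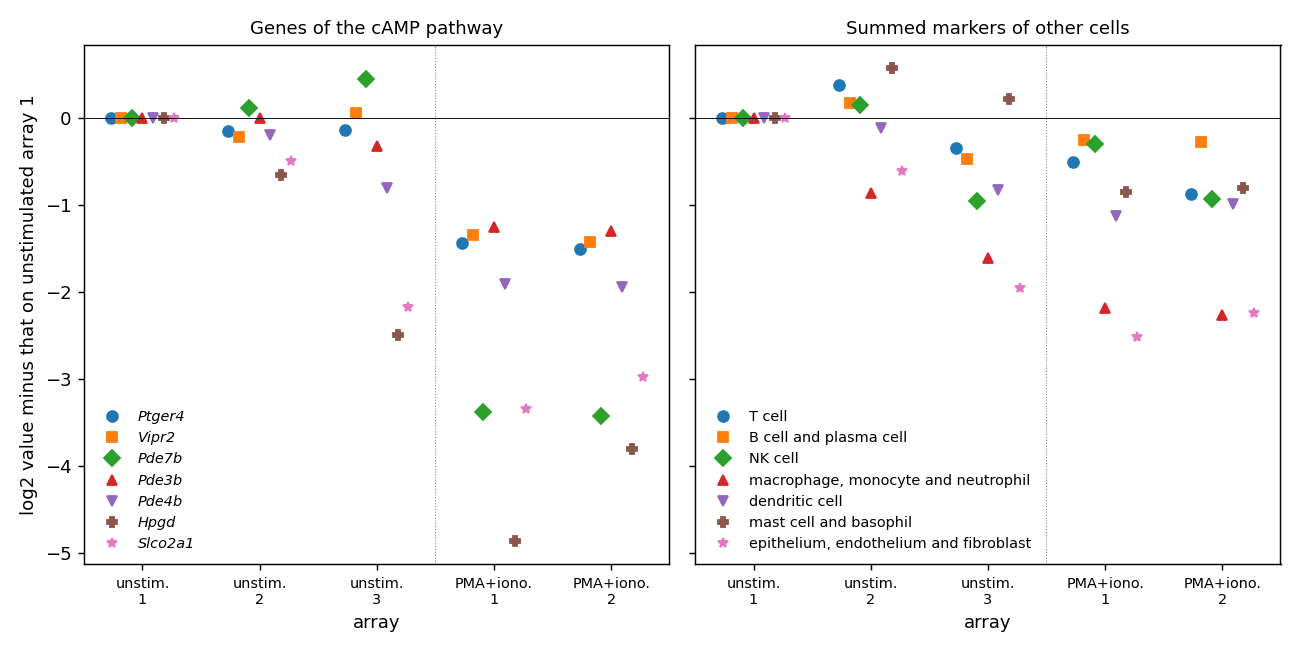
Log2 value on each array minus that on unstimulated array 1, for genes around cAMP (left) and for the summed unlogged level of 7 marker lists of other cell types (right). On unstimulated array 3, Ptger4, Vipr2 and Pde7b stand at -0.14, 0.06 and 0.45 and Hpgd and Slco2a1 at -2.49 and -2.17, while the marker sums run from -1.95 for epithelium, endothelium and fibroblast to 0.22 for mast cell and basophil, with T cell at -0.34.

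In the list on adenosine, Nt5e fell and none of the other 6 measured genes passed the test. Nt5e codes for CD73, the ectoenzyme that makes adenosine from AMP, and read 8.17, 8.02 and 7.86, then 6.70 and 6.59. The groups lay clear of each other, with a difference of -1.37 ± 0.11 (SE, adjusted p = 0.0416), or 2.58-fold. It was -1.21 against unstimulated array 3 alone, and without any 1 array the adjusted p was 0.0587 to 0.147. Entpd1, which codes for CD39, the enzyme acting before it, read 6.19, 5.73 and 4.51, then 4.12 and 3.91 (-1.46 ± 0.59 SE, adjusted p = 0.319), falling over the unstimulated arrays in the order of the lung marker sums. Dpp4, which codes for CD26, a peptidase that binds adenosine deaminase, read 7.72, 7.80 and 6.72, then 5.92 and 5.06 (-1.92 ± 0.50 SE, adjusted p = 0.162). Against unstimulated array 3 alone the differences were -0.49 for Entpd1 and -1.23 for Dpp4, and the part of other cells was not tested.

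Between receptor and kinase, the inhibitory G protein gene Gnai1 rose, the only call among 8 measured G protein and arrestin genes. It read 5.49, 5.86 and 5.68 without and 7.74 and 7.54 after stimulation. Stimulated values exceeded the highest unstimulated one on both arrays, and the difference was 1.96 ± 0.15 (SE, adjusted p = 0.0366), or 3.90-fold. Without any 1 array the adjusted p was 0.0726 to 0.108, with differences of 1.86 to 2.06. The arrestin gene Arrb2 differed by -0.30 ± 0.07 (adjusted p = 0.138) and Gnal, of the Gs family, by -0.20 ± 0.09 (adjusted p = 0.358). The other inhibitory subunits Gnai2 and Gnai3 differed by -0.18 ± 0.14 and -0.08 ± 0.04. None of the 10 adenylyl cyclase genes was called, and all 10 differed by less than 0.25, with Adcy6 (-0.16 ± 0.07) and Adcy3 (-0.14 ± 0.09) farthest from 0. The list median was 5.21 to 5.36 per array, beside 5.64 over all probe sets, and Adcy8 read the same value on all 5 arrays. For cyclase genes at such low or repeated values, a small difference does not show unchanged expression. Adcy7, a cyclase typical of blood cells, differed by 0.05 ± 0.11. Among 18 measured genes of protein kinase A, its anchors, its inhibitors and Epac, Akap13 (-1.04 ± 0.08 SE, adjusted p = 0.0366) and Akap8 (-0.34 ± 0.03 SE, adjusted p = 0.0363), both anchoring proteins, fell, and none rose. Akap13 lost its call without any 1 array (adjusted p = 0.0774 to 0.101), and Akap8 without unstimulated array 1 (0.107), 2 (0.136) or 3 (0.0783). Prkacb, a catalytic subunit, differed by -0.84 ± 0.12 (adjusted p = 0.0724), and the anchoring protein gene Akap12 by -0.83 ± 0.33 (adjusted p = 0.306). Among 4 measured purinergic and oxysterol receptors coupled to Gi, none was called, and Gpr183, the oxysterol receptor, differed by 1.21 ± 0.14 (adjusted p = 0.0577) and P2ry14 by -0.33 ± 0.21 (adjusted p = 0.473).

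**Figure D4:**
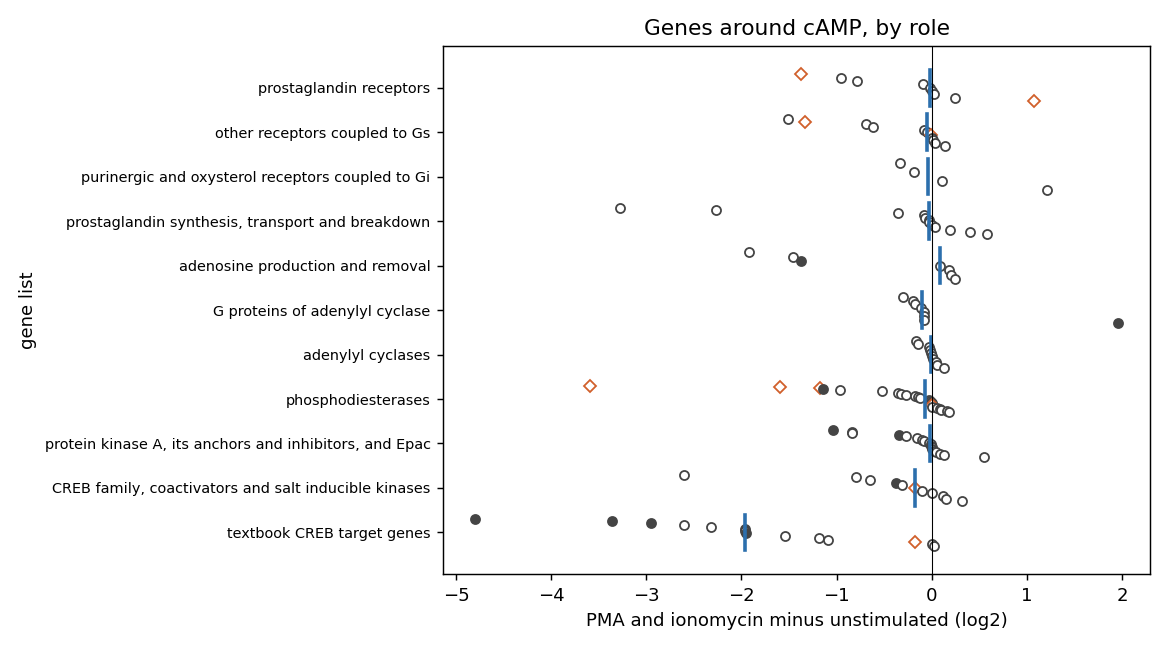
Difference in log2 expression (PMA and ionomycin minus unstimulated) for the genes of 11 lists around cAMP, with open orange diamonds for members, drawn without a call, filled grey points for other genes called over all genes and blue bars at the list medians. Medians lie between -0.18 and 0.09 in all lists but the CREB targets, at -1.96.

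In the test over all genes, 147 genes were called higher and 192 lower, and after centring each array on its median 660 and 526, so that 43.4% and 55.6% of calls were higher. Of the 9 measured members, 1 was called higher and 3 lower, beside 1.70% of all genes called, and 6 had groups without overlap, beside 32.5%. Nothing is read from these shares, since the same contrast led to the choice. The count of called members was 6 after that centring, 0 without unstimulated array 1 or 2 or stimulated array 1, and 2 without unstimulated array 3 or stimulated array 2. Of 117 measured genes from the lists that are not members, 1 was called higher and 10 lower, or 9.40%, with a median difference of -0.07 beside 0.00 over all genes. These counts were 0 without unstimulated array 1 or 2, and 1 without unstimulated array 3. The lists were chosen with earlier results of these data known, so the share of calls is a description only.

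Similar profiles over the 5 arrays were sought by Euclidean distance between log2 values less each gene's mean. Predicted genes, clones, small RNAs and genes of olfactory, vomeronasal, immunoglobulin and T cell receptors were left out. Among the remaining genes, the nearest to Ptger2 were Nop16 (0.11), Slc31a1 (0.15) and Mfsd2a (0.16). Nt5e, the CD73 gene described above, was nearest to Ptger4 (0.14), followed by Ifngr1 (0.17) and Rgcc (0.19). For Vipr2 the nearest were Slc10a1 (0.11), Rgcc (0.15) and Ptger4 itself (0.20). The neighbours of Pde7b, H60b (0.43), Dusp1 (0.59) and Samd9l (0.79), lay farther away. With 5 arrays in 2 groups, a short distance says mainly that the group difference has the same size.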

How the data were processed

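The authors deposited log2 expression values per probe set that RMA, the robust multi-array average method, had produced, as the submitters' processing notes state (per the labels). Its version, its software and which arrays it normalized jointly are not given in the sources used here. Per the labels' protocols, the 1-colour Affymetrix arrays were hybridised with biotin-labelled cRNA from 6 micrograms of total RNA; the deposited table held 35556 probe sets on 5 arrays without detection calls, and precision is limited by having so few arrays. The platform annotation gave 1 gene symbol for 21789 probe sets, several for 1621 (left out) and none for 12146. For each of 19938 genes its probe set of highest mean over all arrays was used. A value was shared by 2 or more arrays to 5 decimals in 12359 genes (62.0%).

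Groups came from sample titles. limma 3.58.1 in R 4.3.3 (lmFit, eBayes) compared 2 stimulated with 3 unstimulated arrays. A gene was called where its p, adjusted by Benjamini-Hochberg over all genes, was under 0.05, and "rose", "fell" and "called" refer to that. With 5 arrays split 3 to 2, an exact one-sided permutation test cannot go below p = 0.1, and none was run. The members and the lists of pathway and marker genes were chosen with earlier results of these data known. All 10 members are named, with any listed receptor, prostaglandin synthesis or phosphodiesterase gene; from the other pathway lists called genes and up to 2 with the largest difference were named. Marker genes were named only where their unstimulated mean exceeded the median of all probe sets, and not all such genes were named. For each of 4 members, 3 genes of nearest profile were named, after the exclusions given above. Creb1, Gnai2, Gnai3, Adcy7 and Xist were named after their values were seen, as were the AP-1 and NFAT letters searched for. Promoter windows are RefSeq's (GRCm38.p6). Alternatives were 13 planned settings and 2 added after seeing the data. The fit was tested on simulated data. Python 3.11.15 with matplotlib 3.10.9 drew the plots.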

Additional observations from a re-analysis of the deposited data

How the results depend on the processing

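The differences of the members kept their sign under all 15 settings for Ptger2 (0.99 to 1.15), Ptger4 (-1.41 to -1.32), Vipr2 (-1.44 to -1.28), Pde7b (-3.85 to -3.46), Pde4b (-1.83 to -1.13) and Pde3b (-1.27 to -0.96). Those of Pde4d (-0.10 to 0.21), Crem (-0.28 to 0.03) and Vipr1 (-0.02 to 0.02) crossed 0. The eBayes options and the restrictions to part of the genes change the SE or the genes tested, not a difference. No sign could change under them. The same contrast also led to the choice of the members, so the kept signs are a description only. The number of called genes depended on the setting. Over all genes, 147 were higher and 192 lower. Robust eBayes gave 45 and 66, genes above the median 824 and 716, median centring 660 and 526, and quantile normalization 825 and 729. Genes without repeated values, chosen after seeing the data, gave 1548 and 1161. Unstimulated array 3 alone, also added then, gave 0 and 0 (3739 genes at an unadjusted limma p under 0.05). Leaving out 1 array gave 0 to 361 higher and 0 to 413 lower. For the 117 listed genes that are not members, 1 higher and 10 lower became 0 and 4 with robust eBayes, 3 and 20 above the median, 3 and 16 with centring, 3 and 20 with quantile normalization, 4 and 24 without repeated values, 0 and 0 against unstimulated array 3 alone, and 0 to 3 and 0 to 7 without 1 array. The fit with the replicate number as a block called 0 genes in both comparisons (3568 at an unadjusted limma p under 0.05). Nothing in the labels pairs the numbers, and deviations from the group means of arrays with number 1 and 2 correlated at -0.14 and -0.06. The causes were not tested. The table has no detection calls, so a level above background cannot be told for any gene.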
